A study of Mus musculus with 4 samples.

Results

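The mouse genes described here are Sox1, Sox4, Sox7, Sox8, Sox9, Sox10, Sox11, Sox17, Sox18 and Sox21. They are a selection, not the full set, of the Sox factors known mainly from lineages that arise after pluripotency. They were chosen by name, and a peak was counted for a gene where the gene symbol in the authors' annotation of the peak was that name. Zeb1 peaks were assigned to 10 of the 10 genes, and together they had 19 of the 17435 peaks in the list. Over the 21000 protein-coding genes of the reference with a curated transcript, 53.3% had an assigned peak.

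Zeb1-bound chromatin was recovered by ChIP-seq from mESC of the D3 line, an established mouse embryonic stem cell line adapted to growth without feeder cells. In all libraries the cells were at passages 5 to 8 in GS, the ground state medium, which is N2B27 with 1 μM PD0325901 (a MEK inhibitor), 3 μM CHIR99021 (a GSK-3 inhibitor) and 20 ng per mL LIF. Chromatin was cross-linked with 1% formaldehyde and sheared to fragments of about 200 bp. The Zeb1 ChIP group held 3 libraries made with 8 μg of anti-Zeb1 antibody, and the Input group held 1 library made without antibody. No group had another genotype, medium or time, so the only contrast was between ChIP and input. For each peak the list holds the authors' averages of the ChIP (treatment) reads and of the input reads, and a separate average of the ratio of treatment to input after scaling for mapped reads, here called enrichment. Enrichment is thus not the quotient of the read numbers printed beside it. Values of single libraries are not in it, and so no SD or test accompanies what follows. Expression was not part of the list, and whether the 10 genes were transcribed in these cells was not measured here.

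Sox proteins share an HMG box, a DNA-binding domain that bends DNA at short AT-rich sites, and are grouped by the similarity of that domain. Group B1 and B2 proteins act in neural progenitors and their progeny, group C in neurons and mesenchyme, group E in neural crest, glia, cartilage and gonad, and group F in endoderm and endothelium. Zeb1 is a zinc finger transcriptional repressor that promotes the epithelial-to-mesenchymal transition and recognises E-boxes with the core CACCTG.

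All 10 genes had a peak whose centre lay within 5 kb of the TSS, the distance the authors used for promoters, against 45.1% of protein-coding genes. That share differed with base composition. Among the 10078 genes whose start was CpG-rich, with at least 50% GC and an observed to expected CpG ratio of at least 0.6 in the 500 bases on either side of the TSS, 72.7% had such a peak, against 19.5% of the other 10922 genes. Of the 10 Sox genes, 9 had a CpG-rich start, and Sox10, with a CpG ratio of 0.32 at its start, was the exception. For those 9 genes the background is the 72.7%, nearer to their count of 9 of 9 than the 45.1% is.

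**Figure D1:**
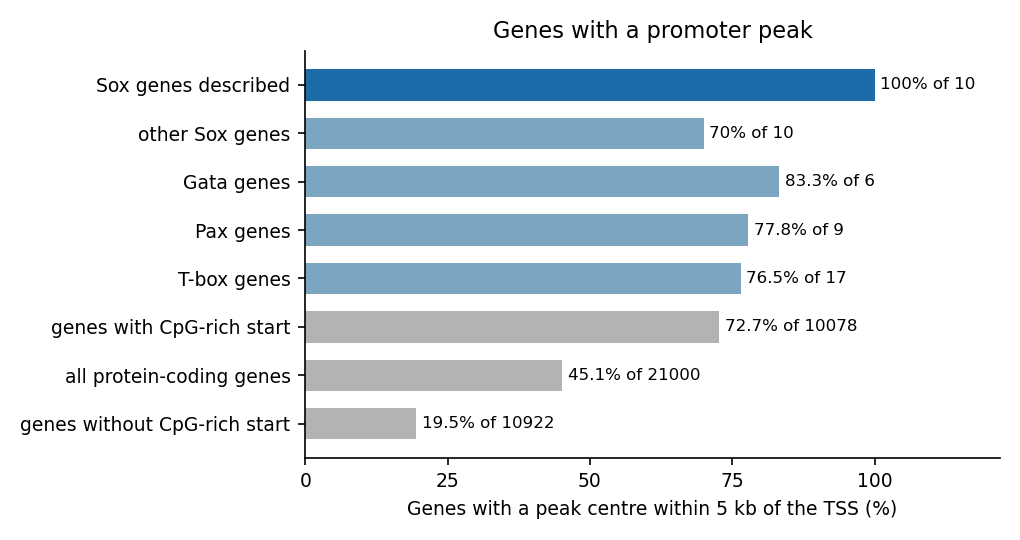
Share of genes with a Zeb1 peak centre within 5 kb of the TSS (horizontal axis, percent) for the 10 Sox genes, other Sox genes, 3 comparison families and all protein-coding genes, also split by the CpG content of the start. The bar for the 10 Sox genes is at 100%, that of the other Sox genes at 70.0% and that of all genes with a CpG-rich start at 72.7%.

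The number of peaks per gene ran from 1 to 4. Sox1 had 4 peaks, Sox17 had 3, Sox4, Sox8, Sox10 and Sox11 had 2 each, and Sox7, Sox9, Sox18 and Sox21 had 1 each. Thus 6 of the 10 genes had at least 2 peaks, against 14.1% of protein-coding genes and 19.2% of those with a CpG-rich start. Among other developmental regulators, counts were similar for 6 of 9 Pax genes, 10 of 17 T-box genes and 5 of the 10 other Sox genes. The Gata genes had a lower count, 2 of 6. Of the 19 peaks, 12 were centred within 5 kb of the TSS and 7 farther away. The promoter peaks stretched into the genes, with 10 of the 12 centred downstream of the TSS, which was also so for 74.8% of the promoter peaks of the whole list.

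**Figure D2:**
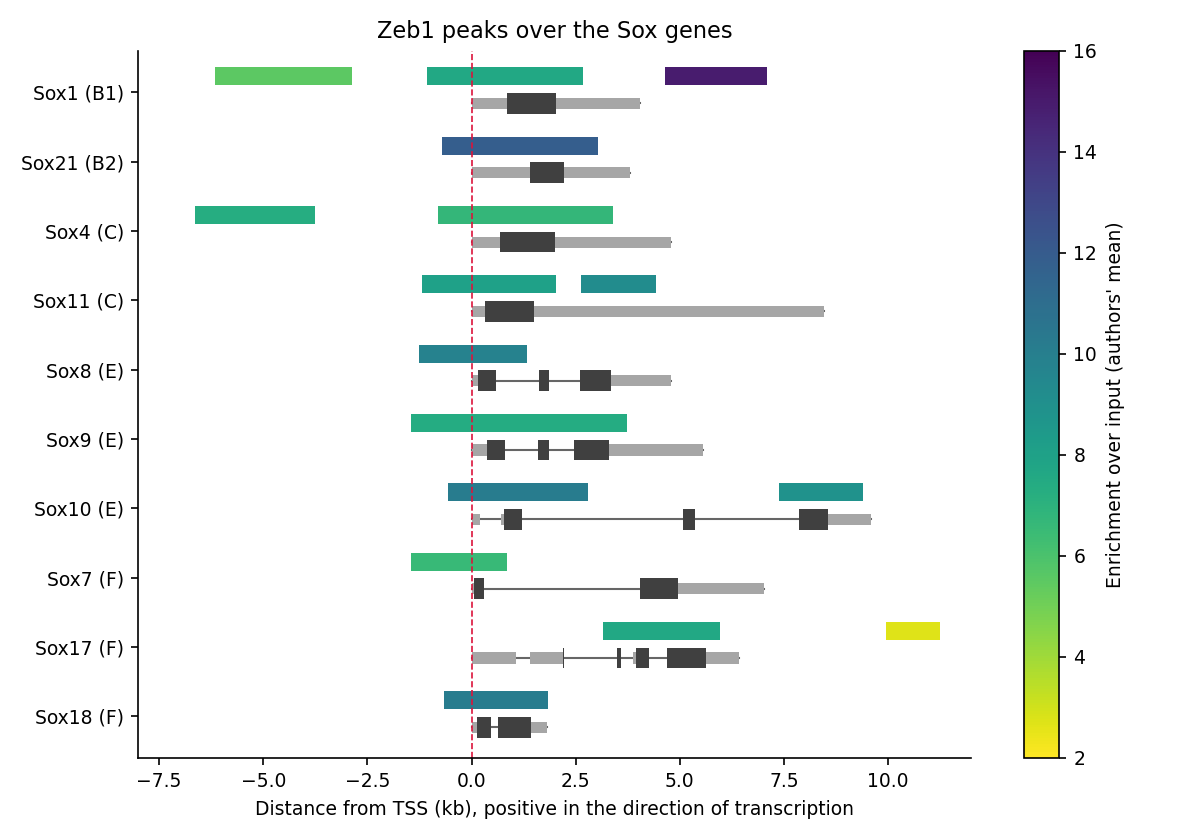
Zeb1 peaks (coloured bars, colour giving the authors' mean enrichment over input) above the exons (light grey) and coding sequence (dark grey) of the 10 Sox genes, by distance from the TSS in kb (dashed line at 0, positive in the direction of transcription). Peaks span the TSS in 9 genes, Sox17 has its nearest peak over its coding exons, and the peaks of Sox1 at 35481 bp, of Sox8 at 30936 bp and of Sox17 at 74371 bp from the TSS are outside the range drawn.

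Sox1, a group B1 factor of the early neural plate, is a gene of 1 exon on the plus strand of chromosome 8. Its promoter peak at chr8:12394451-12398200 (mm10) covered the TSS and all 1176 coding bases, with an enrichment of 7.61 beside 104.3 treatment and 28.1 input reads. A second peak at chr8:12389351-12392650, centred 4519 bp upstream, had 108.4 treatment reads and an enrichment of 5.52. The strongest enrichment of all 19 peaks was 14.96, in the peak at chr8:12400151-12402600, 5856 bp downstream of the TSS and beyond the end of the gene. Only 10.6 input reads lay in it beside 69.7 treatment reads, and 96.7% of the peaks in the list had a lower enrichment. The fourth peak, at chr8:12429801-12432200, was centred 35481 bp downstream and had an enrichment of 4.47. All 4 peaks lay inside the body of Sox1ot, a non-coding gene transcribed over Sox1 on the same strand, listed as Gm5607 by the authors. The start of that gene carried a peak of its own at chr8:12384001-12387300, 9869 bp upstream of the Sox1 TSS, with 142.3 treatment reads and an enrichment of 9.46, higher than at the Sox1 promoter. Sox1 thus stood in a stretch of 5 peaks, of which the list gave 4 to it.

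The Zeb1 motif was searched as CNCACCTG, CNTACCTG, TNCACCTG or TNTACCTG on both strands, and at least 1 match was present in 76.8% of all peaks. The Sox1 promoter peak held 3 matches, of which 1 was in the coding sequence. It is shown with capitals for the match, as are all sequences that follow, each 30 bases of GRCm38.p6 read on the strand of the motif.
Sox1, coding exon, plus strand, chr8:12397386-12397415: gatgatcagcaTGTACCTGcccgccggcga
The peak with the enrichment of 14.96 held no match and no CACCTG.

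Sox21, a group B2 factor of neural progenitors, is a gene of 1 exon on the minus strand of chromosome 14. A single peak at chr14:118234001-118237750 spanned the TSS, all 831 coding bases and 79.8% of the gene. With 163.7 treatment reads over 28.0 input reads, it was the peak with the most treatment reads among the 19, and 99.0% of all peaks had fewer. Its enrichment of 11.89 was the highest of the promoter peaks of the 10 genes, above that of the best promoter peak in 93.8% of genes with one. The motif lay close to the start of transcription on both sides, 84 bp downstream and 395 bp upstream of the TSS, and these sites are shown because no other site in the 10 genes was as near to a TSS.
Sox21, 5′ UTR, minus strand, chr14:118236931-118236960: aggtggcgacaCTCACCTGagccgggctgc
Sox21, upstream, minus strand, chr14:118237410-118237439: ctgttgcgagtCACACCTGgccctccaagg

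Sox4 and Sox11, group C factors of neurons and mesenchymal progenitors, are also genes of 1 exon. At Sox4, the peak at chr13:28950301-28954500 covered the TSS and all 1323 coding bases, with an enrichment of 6.74 beside 106.3 treatment and 35.4 input reads. The second Sox4 peak, at chr13:28957451-28960350, was centred 5218 bp upstream, just past the promoter distance, with an enrichment of 7.35. Both lay inside the predicted non-coding gene Gm46405, on the same strand. At Sox11, the peak at chr12:27340701-27343900 covered the TSS and all 1188 coding bases, with an enrichment of 8.04 beside 100.1 treatment and 28.0 input reads. A gap of 600 bp separated it from the peak at chr12:27338301-27340100, which lay wholly in the 3′ UTR with 51.4 treatment reads and an enrichment of 9.27. Of the 2 Sox11 peaks, the one in the 3′ UTR thus had fewer reads but the higher ratio to input. The coding peaks of both genes held 1 motif match each, in the coding sequence.
Sox4, coding exon, minus strand, chr13:28952213-28952242: agtgaagcgcgTCTACCTGtttggaagcct
Sox11, coding exon, minus strand, chr12:27341738-27341767: gcccgcgcactCGCACCTGctgccgccgcc

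Sox8, Sox9 and Sox10, the group E factors of neural crest, glia, cartilage and gonad, have introns, and their peaks differed in how far they reached into the gene. The Sox9 peak at chr11:112780751-112785950 was 5200 bp long, the longest of the 19, and covered all 3 coding exons, with an enrichment of 7.41 beside 119.1 treatment and 29.8 input reads. It was the only peak of Sox9, a gene known for regulatory elements spread over a wide region without other coding genes, and the nearest peak given to another gene was 365640 bp from the TSS. The Sox8 promoter peak at chr17:25569351-25571950 was centred 36 bp from the TSS, the closest of all, with 103.0 treatment reads and an enrichment of 9.83. It reached only the first of the coding exons and 29.6% of the coding bases. A weaker Sox8 peak at chr17:25539101-25540400, 30936 bp downstream, had 24.5 treatment reads, near the minimum of 20 set by the authors, and an enrichment of 5.25.

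Sox10, which specifies neural crest and its glia, had a peak at either end of the gene. The promoter peak at chr15:79161701-79165050 had an enrichment of 10.17 beside 111.3 treatment and 21.3 input reads, and the peak at chr15:79155101-79157100, centred in the last coding exon 8390 bp from the TSS, had an enrichment of 8.86 beside 39.4 treatment and 9.1 input reads. The peak at the end of the gene held 5 motif matches, the most of the 19 peaks, in 2000 bp, while the longer promoter peak held 1. For CACCTG alone the order turned, with 6 in the promoter peak and 5 in the peak at the end of the gene. Both Sox10 peaks were poor in CpG for their GC content. Their CpG ratios were 0.42 at the promoter and 0.20 at the end of the gene, where GC contents were 61.3% and 59.0%.

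The group F genes Sox7, Sox17 and Sox18 act in endoderm and endothelium, and peaks covered each of the 3 differently. Sox18, of blood and lymphatic vessels, is the shortest of the 10 genes with 1804 bp, and its peak at chr2:181669801-181672300 contained the entire gene. That peak had an enrichment of 10.16 beside 112.4 treatment and 22.8 input reads, and no motif match, though 1 CACCTG. Sox7 had 1 peak, at chr14:63942251-63944550, with an enrichment of 6.58 beside 55.8 treatment and 17 input reads. That enrichment was the lowest among the best promoter peaks of the 10 genes. The Sox7 peak covered the TSS but only 20.8% of the coding bases, since the second coding exon lies beyond a long intron, and like the Sox18 peak it held 1 CACCTG and no match to the longer motif.

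Sox17, a determinant of definitive endoderm, was the only gene of the 10 with its TSS outside a peak. Its main peak, at chr1:4491401-4494200, was centred 4554 bp downstream of the TSS and covered 1352 of the 1372 coding bases of its 5 curated transcripts. The 128.0 treatment reads in it were second only to Sox21 among the 19 peaks, and its 45.7 treatment reads per kb were the most. With 36.0 input reads, its enrichment was 7.59, and 64.6% of all peaks were lower. This peak held 4 motif matches, of which the 2 in coding exons are shown.
Sox17, coding exon, minus strand, chr1:4492086-4492115: ccccagcgctcTGCACCTGtactacggcgc
Sox17, coding exon, plus strand, chr1:4492528-4492557: gcttcatgcgcTTCACCTGcttgcgccgcc
The other peaks of Sox17 were weaker. One at chr1:4571001-4572450, 74371 bp upstream and inside the non-coding gene Gm37323, had 35.5 treatment reads and an enrichment of 5.20. The other, at chr1:4486101-4487400 and 10604 bp downstream of the TSS, had 53.7 treatment reads over 43.0 input reads and an enrichment of 2.70, the lowest of the 19. The authors' annotation placed it on a LINE-1 repeat, its GC content of 41.3% was the lowest of the 19, and its 33.1 input reads per kb compare with a median of 8.1 over all peaks. The part of repeated sequence in this value was not tested.

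Peaks over the 10 genes were long and rich in reads, with an enrichment only a little above the list. The median length of the 19 peaks was 2600 bp against 1850 bp over all peaks, and for the 12 promoter peaks it was 3250 bp against 1950 bp for all promoter peaks. At least 100 treatment reads were found in 10 of the 19 peaks, against 6.91% of all peaks, and all 10 were promoter peaks, 1 for each gene except Sox1, which had 2, and Sox7, which had none. Per kb of the full peak length, the difference was smaller, with a median of 28.6 treatment reads against 25.1, and with 7.5 input reads against 8.1. These values per kb are approximate, since what each read average covers is not given in the list. Across the 19 peaks the treatment reads rose with peak length (Spearman's rho 0.817), as they did across all peaks (0.668), and all of these values come from the same libraries. The median enrichment of the 19 peaks was 7.59 against 6.50, with a range from 2.70 to 14.96. For the 12 promoter peaks it was 7.83 against 6.74, and for the 7 others 5.25 against 6.0. A peak with an enrichment of at least 10 was present at 4 of the 10 genes, Sox1, Sox10, Sox18 and Sox21, against 9.95% of protein-coding genes. That share of genes includes those without a peak. By peak the difference was smaller, with 4 of the 19 peaks against 14.7% of all peaks.

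**Figure D3:**
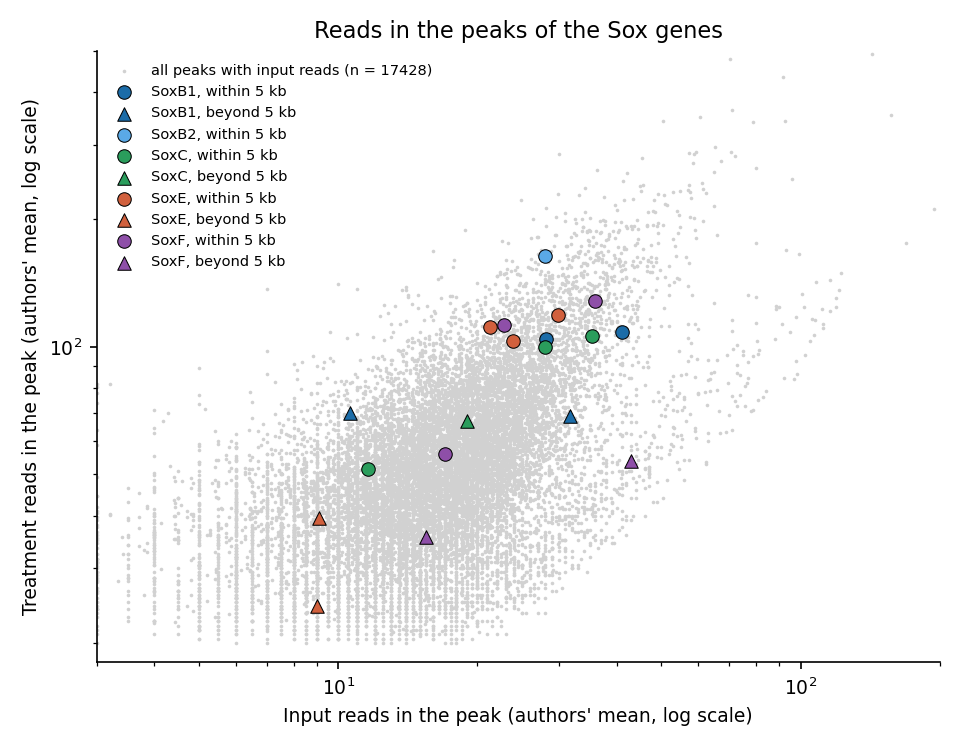
Treatment reads (vertical axis) against input reads (horizontal axis) in each peak, both the authors' means on log scales cropped to the range of the Sox peaks, with the 19 peaks of the 10 Sox genes coloured by Sox group (circles within 5 kb of the TSS, triangles beyond) over all peaks in grey. Most circles lie near or above 100 treatment reads, and the triangle farthest to the right is the Sox17 peak on a LINE-1 repeat with 43.0 input reads.

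Promoter peaks of these genes often took in the whole coding sequence. This was so in 6 of the 10 genes, Sox1, Sox4, Sox9, Sox11, Sox18 and Sox21, against 4.42% of protein-coding genes. Coding sequences of the Sox genes are compact, so the same count was made over genes with the TSS inside a peak and a coding span of at most 5 kb. There it was 6 of 8 Sox genes against 37.1% of 2044 genes. Compactness was only partly matched by that limit, since Sox1, Sox4, Sox11, Sox18 and Sox21 had coding spans of 831 to 1323 bp. The TSS lay inside a peak in 9 of the 10 genes, against 47.7% of protein-coding genes and 80.4% of those with a CpG-rich start, so this count is near the share for such genes. When the centre had to lie within 1 kb of the TSS, 5 of the 10 genes remained, Sox1, Sox7, Sox8, Sox11 and Sox18, against 41.1% of protein-coding genes. The share among genes with a CpG-rich start, which 9 of the 10 genes had, was not counted at this distance. At Sox4, Sox9, Sox10 and Sox21 the centres were 1115 to 1282 bp inside the gene, in peaks that began upstream of the TSS.

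**Figure D4:**
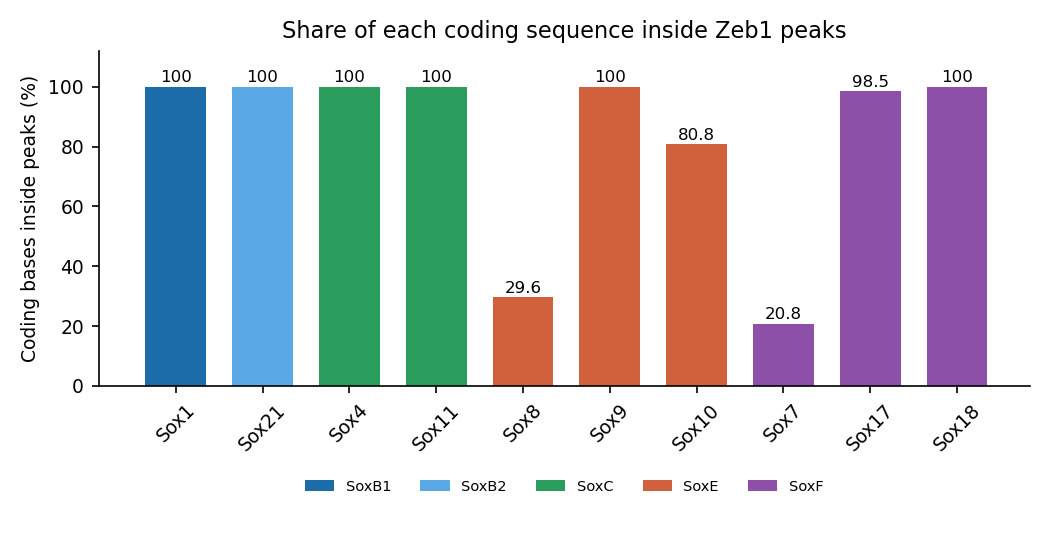
Share of the coding bases of each of the 10 Sox genes that lay inside its Zeb1 peaks (vertical axis, percent), coloured by Sox group. The share was 100% in 6 genes, 98.5% in Sox17, 80.8% in Sox10, 29.6% in Sox8 and 20.8% in Sox7.

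At least 1 match to the Zeb1 motif was present in 13 of the 19 peaks, or 68.4% (95% Wilson interval 46.0 to 84.6, for counting error only), and the 76.8% of all peaks lies inside this interval. Among the 12 promoter peaks it was 9, or 75%. Matches were sparser than in the list at large, with 28 matches in 52550 bp, or 0.533 per kb, against 0.889 per kb over all peaks. The core CACCTG alone was present in 16 of the 19 peaks, or 84.2%, against 82.1% of all peaks. The form CNCACCTG accounted for 11 of the 28 matches, TNCACCTG for 11, TNTACCTG for 5 and CNTACCTG for 1. Coding exons held 7 of the 28 matches, or 25%, while coding bases made up 19.6% of the peaks' length. Introns held 6, sequence upstream of the gene 6, the 5′ UTR 4, sequence downstream 3 and the 3′ UTR 2.

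The sequence just before the TSS could be read for some of the genes. The RefSeq promoter table (GRCm38.p6) had an entry for Sox1, Sox4, Sox8, Sox11 and Sox21, and the 250 bases before the TSS were wholly inside a peak in all 5. None of these 5 windows held the motif or CACCTG, which were present in only 14.3% and 17.2% of the 32851 promoter windows of the table, so that none in 5 is close to the share at large. A site typical of Sox proteins themselves, AACAAT on either strand, which shares no core with the Zeb1 motif, was present in 7 of the 19 peaks, or 36.8%, against 48.2% of all peaks.

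Promoter peaks and the other peaks of the 10 genes differed in base composition. The median CpG ratio of the 12 promoter peaks was 0.76 against 0.64 for all promoter peaks, and the 7 other peaks had a median of 0.55 against 0.35. GC contents differed less, with medians of 58.6% against 56.8% at promoters and 54.4% against 52.7% elsewhere. Of the Sox11 peaks, the one over the coding sequence had the highest CpG ratio of the 19, 0.93, and the one in the 3′ UTR reached 0.88 at a GC content of only 50.7%.

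**Figure D5:**
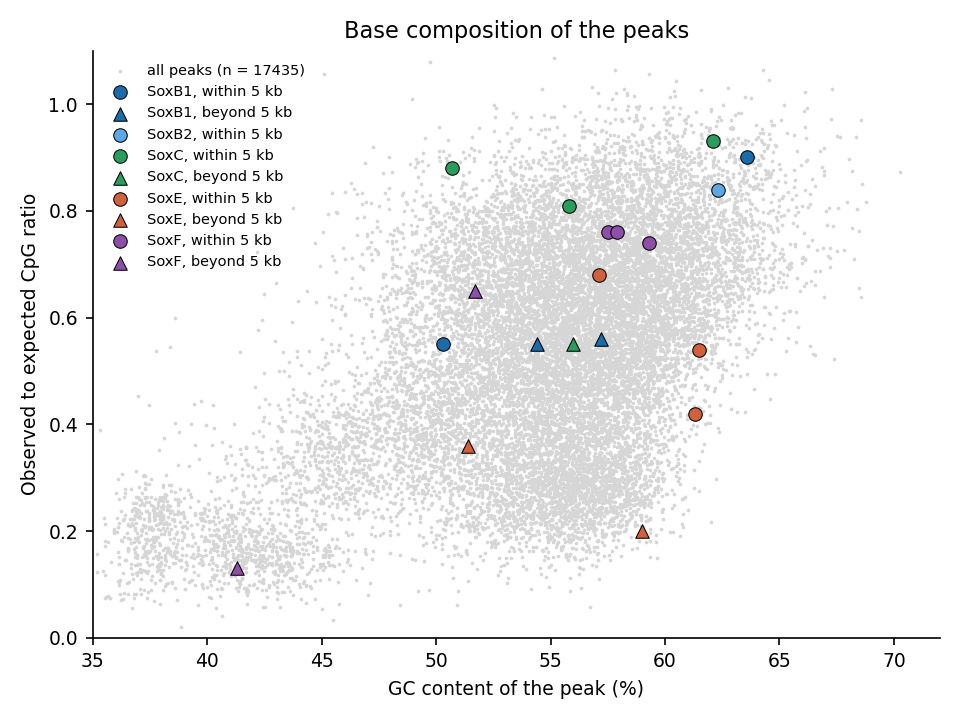
Observed to expected CpG ratio (vertical axis) against GC content in percent (horizontal axis) of each peak, with the 19 peaks of the 10 Sox genes coloured by Sox group (circles within 5 kb of the TSS, triangles beyond) over all peaks in grey, cropped to the range around them. The Sox11 peak over the coding sequence sits highest, at 0.93, followed by the Sox1 promoter peak at 0.90, and the Sox17 peak on a LINE-1 repeat sits lowest, at 0.13.

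The surroundings of the genes ranged from empty to dense in peaks. Within 100 kb of the TSS of Sox4, Sox7, Sox9 and Sox11, no peak was given to another gene, and such isolation was found for 22.8% of the 9465 genes with a promoter peak. The nearest peak of another gene was 119051 bp away at Sox4, 336356 bp at Sox7 and 873218 bp at Sox11. At the other end, Sox10 had 10 peaks of other genes within 100 kb. The strongest of these was at Slc16a8, a transporter gene, with 148.4 treatment reads and an enrichment of 13.39, above both Sox10 peaks. Sox18 had 5 such peaks, at the starts of Uckl1, Znf512b, Samd10, Tcea2 and Rgs19, with enrichments from 6.25 to 8.58, all below the 10.16 of Sox18. Sox8 had 4, with enrichments from 4.85, at the start of Lmf1 8414 bp upstream, to 9.75, at a peak given to Sstr5, close to the 9.83 of Sox8 itself. Sox21 had 2, both given to Gpr180 and both lower in enrichment, at 3.95 and 2.52. The Sox17 region held 1, given to Rp1, with an enrichment of 5.95. The authors' annotation placed the Gpr180 peak at 2.52, with 73.0 input reads, and the Rp1 peak on LINE-1 repeats.

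The peaks of the other 10 Sox genes had fewer reads and a higher enrichment. A promoter peak was present in 7 of these genes, and Sox5, Sox15 and Sry had no assigned peak. The 15 peaks of these genes had a median enrichment of 9.90, above the 7.59 of the 10 genes described here, and a median of 57.0 treatment reads, below the 100.1 of those genes. Sox2, the pluripotency factor of group B1, had a promoter peak with 148.3 treatment reads and an enrichment of 7.84, close to the 7.61 of Sox1. Sox3, also of group B1, reached an enrichment of 14.20 with 53.5 treatment reads. In group B2, Sox14 had 3 peaks with enrichments from 8.13 to 13.84, a range that takes in the 11.89 of Sox21. In group C, the single peak of Sox12 had 104.3 treatment reads and an enrichment of 9.94, with reads near those of Sox4 and Sox11 and a higher ratio to input. Group D, to which none of the 10 genes belongs, had 3 peaks each at Sox6 and Sox13 and none at Sox5. Sox30 had 2 peaks, of which the one 33965 bp from its TSS had the highest enrichment of any Sox gene, 19.06, with 53.4 treatment and 5.8 input reads. Like the weakest Sox17 peak, it was placed on a LINE-1 repeat by the authors' annotation, and the part of repeated sequence in its value was not tested.

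Other families of developmental regulators lay between the 10 Sox genes and all genes in the share with a promoter peak. A promoter peak was present at 5 of 6 Gata genes (83.3%), 7 of 9 Pax genes (77.8%) and 13 of 17 T-box genes (76.5%). The share was 45.1% over all protein-coding genes and 72.7% over those with a CpG-rich start, so the family shares were near the latter. Of the families, 5 Gata, 5 Pax and 9 T-box genes had a CpG-rich start. Median enrichments over all peaks of these families were 7.30, 6.86 and 7.60, and the 7.59 of the 10 Sox genes was within that range. The best promoter peaks had medians of 78.7, 80.1 and 71.3 treatment reads, against 108.8 in the 10 Sox genes and 53.0 over all genes with a promoter peak. Lists of cartilage and gonad genes, at 103.5, and of neural progenitor genes, at 99.0, came close to the 10 Sox genes. Those of neural crest and glia, at 54.6, and of endoderm and endothelium, at 54.4, were near the value for all genes. In length, the best promoter peaks of the Pax genes exceeded those of the 10 Sox genes, with a median of 3300 bp against 3075 bp. Long promoter peaks with many reads were thus also found outside the 10 genes. Pax2, with 8 peaks, and Gata2, with 4, had the most peaks of their families, and Tbr1 and Tbx4, with 4 each, the most of the T-box genes. Among the 220 other genes with 4 assigned peaks, those with a median enrichment nearest to the 6.56 of Sox1 were Efna2 (6.56), Kcnq1 (6.60), Rfpl4b (6.60), Tnfrsf25 (6.60) and Inhba (6.52).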

How the data were processed

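Zeb1 ChIP-seq of mESC in GS was measured in 3 ChIP libraries and 1 input library. The authors aligned the reads to mm10 with STAR 2.4.2a, removed duplicates with Picard 1.136, called peaks against the input with PeakRanger, set minima of 2-fold enrichment and 20 treatment reads, merged peaks found in at least 2 ChIP libraries, counted again, averaged and annotated with HOMER 4.7. The deposited read columns are a signal, an average of reads in the peak, and the deposited enrichment is a ratio to input normalized for mapped reads. Whether each average covers the whole peak, and how many values went into it, could not be told from the list. Reads per kb are these averages divided by the full peak length, and are approximate for that reason. The deposited p-value was 0 for all 17435 peaks and was not used. The authors scaled the reads of each sample to 1 depth before averaging, and the values are often not whole numbers, also for the input. Long peaks collect more reads. Library depths are unknown from the list.

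Distances were those of the list. For the 19 Sox peaks they were within 100 bp of those from GRCm38.p6, the same assembly. The legend of the list gives the sign the other way round, and the sign that matched the reference, positive for downstream, was used in its place. Genes were matched by Entrez number, and all 10 members were found. Coding overlap, base composition and motifs were computed from the reference. No test was made. The members and lists were chosen with earlier results of these data known. Named genes were the members, all other Sox genes, neighbours within 100 kb, up to 5 genes with as many peaks as the member with the most and the nearest median enrichment, and the genes with the most or no peaks in each list, of which some are not reported here. The CpG-rich start, the coding span and the isolation of genes were defined after the data were seen. The search was tested on simulated sequence. Python 3.11.15, NumPy 2.4.6, pandas 2.3.3, SciPy 1.17.1, pysam 0.24.0 and Matplotlib 3.10.9 were used.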

Additional observations from a re-analysis of the deposited data

How the results depend on the processing

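Of 23 alternatives for 5 results, 18 stayed within 1.5 times the main count or value, or within the Wilson interval of the share. With a minimum enrichment of 10, 4 genes and 4 peaks were left in place of 10 and 19, since that limit kept 14.7% of all peaks. With the centre within 1 kb of the TSS, 5 genes had a promoter peak. A motif search on the forward strand alone gave 42.1% of the 19 peaks, against 54.4% of all peaks, and one in the central 500 bases 21.1%, against 34.6%, both by construction a smaller search. With a minimum enrichment of 5, all 10 genes kept a promoter peak, but that limit is mild and kept 74.0% of all peaks. Leaving out LINE-1 peaks, counting only peaks with the TSS inside and taking motifs in promoter peaks alone were added after seeing the data. Leaving out each ChIP library was not run, because the list has no value per library. No paired analysis was possible because the groups compared share only 1 replicate number and the values are averaged. The spread between libraries, and with it the error of any single enrichment, is unknown. This holds also for peaks with reads near the minimum of 20, such as the distal Sox8 peak.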

Other observations

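Genes that work with these Sox factors in their lineages were also looked up in the list. Over all protein-coding genes, 53.3% had an assigned peak and 45.1% a promoter peak, and 72.7% of those with a CpG-rich start had a promoter peak. Of 10 neural progenitor genes, all 10 had an assigned peak and 8 a promoter peak, near the share for CpG-rich starts, which 7 of them had. Their peaks included 3 at Neurog1, a proneural factor, the most of the list, and the assigned peaks of Dcx and Msi1 were centred only beyond 5 kb. The TSS of a curated transcript nevertheless lay inside a peak in 9 of the 10 genes. That was so for 47.7% of protein-coding genes and 80.4% of those with a CpG-rich start. All 11 genes of endoderm and endothelium had a peak and 9 a promoter peak, and 6 had a CpG-rich start. The most peaks, 6, were at Nr2f2, a regulator of venous identity. All 7 genes of cartilage and gonad had a peak and 6 a promoter peak, and 3 had a CpG-rich start. Fgf9 had the most (3), and Acan, which encodes a cartilage proteoglycan, had a peak only at 36242 bp from its TSS. The choice to name Dcx, Msi1 and Acan was made with their values in view.

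Of the 12 genes of neural crest and glia, 8 had a peak (66.7% against 53.3% of all protein-coding genes) and 6 a promoter peak (50% against 45.1%), and 6 had a CpG-rich start. Tfap2a, an early neural crest factor, had 7 peaks. Among the genes without a peak were Mitf, of the pigment lineage, and Ednrb, an endothelin receptor. The median enrichment was 6.63 over the peaks of this list, 7.93 for neural progenitors, 7.23 for endoderm and endothelium and 8.85 for cartilage and gonad, against 6.50 over all peaks.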
